A study of Mus musculus with 6 samples.

Results

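The genes of the cytosolic ribosomal proteins were examined in whole testes of Rnu11 mutant mice (n = 3) and control mice (n = 3) at postnatal day 14. Members were all genes whose symbol is Rpl or Rps followed by a number, with or without a final a, l or x, together with Rplp0, Rplp1, Rplp2 and Rpsa, and without the named pseudogenes. The rule gave 83 of the 55353 genes measured, 51 of the large and 32 of the small ribosomal subunit, spread over 19 chromosomes. The mutants carry a conditional knockout of Rnu11, the gene of U11 snRNA, which recognises 5′ splice sites for the minor spliceosome. The Cre line, the cells it acts in and the genotype of the controls beyond that word were not given in the sources used here. Each library was made from stranded total RNA after removal of ribosomal RNA, and values are in TPM, the authors' estimate of transcript abundance scaled for length and for the total of the library. TPM carries no depth, and how many reads stand behind a value is unknown. The comparison of mutants with controls bears on the study's question of what loss of U11 does to the testis.

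A cytosolic ribosome joins a small subunit, which reads the mRNA, and a large subunit, which forms the peptide bond, and each carries a set of proteins made in matched amounts. Most of these proteins come from 1 gene each, and the compact, highly expressed mRNAs of these genes begin with a pyrimidine run, the TOP motif, through which mTOR signalling controls their translation. In the mouse testis some members have paralogs that are used in germ cells, and the genome holds many processed copies of ribosomal protein mRNAs. The minor spliceosome removes a rare class of introns with its own 5′ splice site and branch site, and among the members Rpl4, a large subunit protein of the peptide exit tunnel, holds such an intron.

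Rnu11 itself stood at 196 to 393 TPM in the mutant libraries and 550.3 to 614 TPM in the control libraries. Between 30113 and 34510 genes per library were above 0. The libraries also differed in markers of testis cell types, as sums over hand-written lists. The 13 Sertoli cell markers summed to 2267 to 2922 TPM in mutants and 1639 to 1860.0 TPM in controls, and the 8 Leydig cell markers to 261 to 403 TPM in mutants and 141 to 255 TPM in controls. The 12 leptotene to zygotene spermatocyte markers summed to 307 to 388 TPM in mutants and 439 to 537 TPM in controls, and the 10 pachytene markers to 106 to 132 TPM in mutants and 110.2 to 236 TPM in controls. No gene of these lists was listed at 0 in every library. In bulk tissue, fewer cells of a type and less RNA per cell cannot be told apart, and the part of these shifts in the results below was not tested.

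The ribosomal protein genes ranged over more than 3 orders of magnitude in assigned level. Averaged over the 6 libraries, 36 members were at 100 TPM or more, 40 at 10 to 100 TPM, 6 at 1 to 10 TPM and 1 under 1 TPM, with a median of 83.4 TPM. Rplp1, a protein of the ribosomal stalk, was highest, at 939, 824 and 968 TPM in mutants and 715, 900.2 and 825 TPM in controls. Rpl3l, a paralog of Rpl3 known from striated muscle, was lowest, at 0.558, 0.0972 and 0.301 TPM in mutants and 0.360, 0.327 and 0.532 TPM in controls, and was the 1 member under the filter of a mean of 1 TPM, so 82 members entered the test. Of the 83, 80 are annotated as protein-coding and 3, Rpl6l, Rpl32l and Rps4l, as processed pseudogenes.

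Ribosomal protein genes as a group stayed close to the median of all genes. No member differed between mutants and controls after adjustment over all 17959 genes tested (limma on log2(TPM + 1), Benjamini-Hochberg adjusted, called under 0.05). The smallest adjusted p of a member was 0.29, and 0.0278% of all genes tested passed. At an unadjusted p under 0.05, 8 members (9.76%) were higher in mutants and 1 (1.22%) lower, against 12.1% and 3.98% of all genes tested. The median log2 difference of the members, mutant minus control, was 0.10, beside 0.094 for all genes tested. Between the quartiles the members ran from 0.012 to 0.18, a narrower range than that of all genes, from −0.057 to 0.25. Of the 82 members, 62 differed by under 0.25 on the log2 scale, and the extremes were −0.59 and 0.48.

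The direction of the group depended on the scaling. With TPM as deposited, 65 of 82 members (79.3%) were higher in mutants, as were 66.4% of all genes tested, but after median-ratio scaling of the libraries 40 were higher and 42 lower, and after rescaling to protein-coding genes 33 were higher and 49 lower. The median of all genes moved to −0.0025 and −0.025 under these scalings, and the median of the members to −0.0076 and −0.034. Small subunit genes had a median of 0.12 (27 of 32 higher) and large subunit genes of 0.10 (38 of 50 higher), with TPM as deposited. The 4 members on the X chromosome, Rpl10, Rpl36a, Rpl39 and Rps4x, had positive differences in all 3 scalings, and none passed. These were 0.14 to 0.36 as deposited, 0.064 to 0.25 after median-ratio scaling and 0.042 to 0.23 after rescaling to protein-coding genes.

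Summed over the 83 members, ribosomal protein genes took 1.07%, 1.19% and 1.10% of all TPM in mutants and 1.02%, 1.04% and 1.04% in controls. All mutant libraries stood above all control libraries on this measure. As a share of the TPM of protein-coding genes they took 3.65%, 3.83% and 4.14% in mutants and 4.03%, 3.79% and 3.98% in controls, and here the groups overlapped. With near-identical copies of the members added, the shares of all TPM were 2.65%, 3.10% and 2.81% in mutants and 2.67%, 2.61% and 2.65% in controls, also with overlap. Mutant replicate 2 had the highest share of all TPM, and without it the median log2 difference of the members was 0.047.

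**Figure D1:**
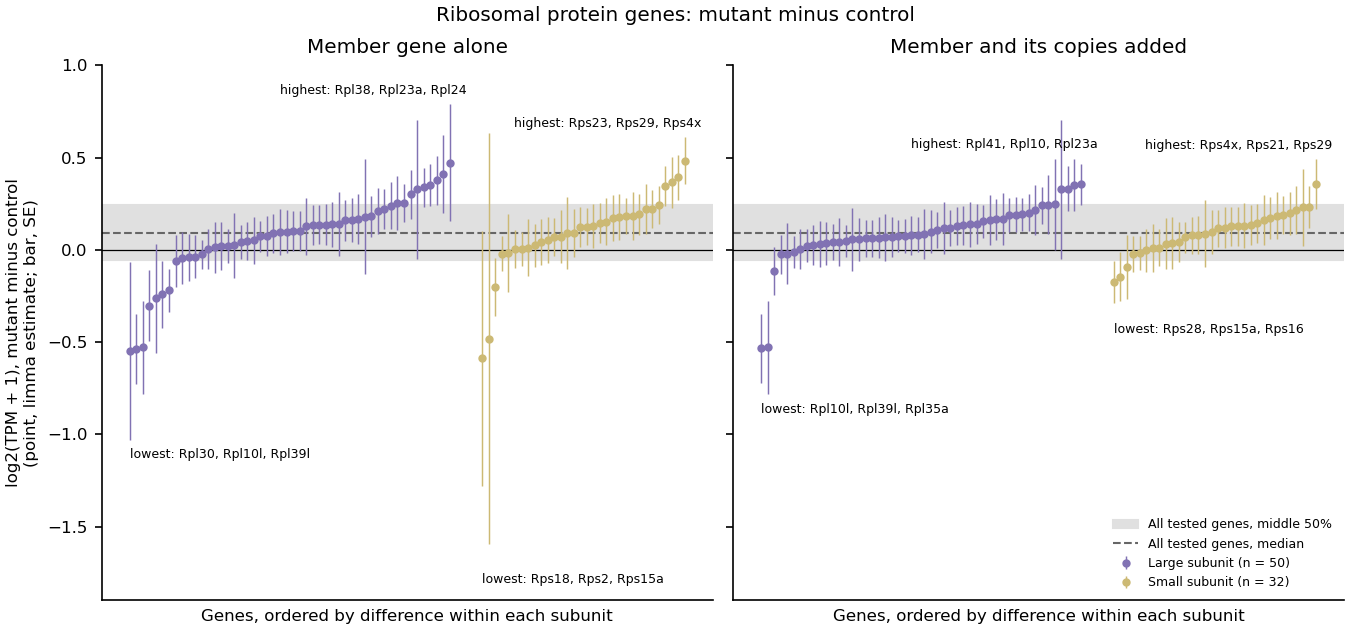
Log2 difference in log2(TPM + 1), mutant minus control (n = 3 each), for the 82 members tested, ordered within the large and the small subunit, for each member gene alone (left) and with its near-identical copies added (right); points are limma estimates and bars their SE, the grey band spans the quartiles of all genes tested and the dashed line is their median of 0.094. Most members lie inside the band, and Rps18, Rps2 and Rpl30, which lie far below it alone, move into it once copies are added. Rpl10l and Rpl39l stay low, but have next to no copies to add.

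Rpl4 was the member in which a difference between the groups was found, and it lay in 1 isoform. The gene (GRCm38 chromosome 9, 64173375 to 64178666, plus strand) has 9 introns in its coding isoform, and the 3rd is the minor intron. It is shown because the called isoform keeps it; capitals mark the 5′ splice site, the branch site and the last 2 bases:
Rpl4 intron 3, chr9:64175301-64175583, plus strand: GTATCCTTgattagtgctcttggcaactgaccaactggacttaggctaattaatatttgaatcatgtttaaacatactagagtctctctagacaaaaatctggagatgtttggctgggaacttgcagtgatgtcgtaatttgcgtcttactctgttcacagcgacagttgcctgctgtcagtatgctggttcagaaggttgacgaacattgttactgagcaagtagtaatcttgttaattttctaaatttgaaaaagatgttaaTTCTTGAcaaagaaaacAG

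The intron is 283 bases long and was read on the transcribed strand from the GENCODE M21 transcript that retains it. Its first 8 bases, GTATCCTT, match the minor 5′ splice site exactly, and TTCTTGA, whose last A lies 13 bases from the end, has 1 mismatch to the minor branch site TCCTTGA. Searched on the same strand, ATATCCTT or GTATCCTT at the 5′ end together with TCCTTAA or TCCTTGA, at 1 mismatch or fewer near the 3′ end, was found in 43 (0.297%) of 14486 introns that could be read from a retaining transcript, and in 1 of the 178 such introns of the members. The intron follows 282 bases of coding sequence. Translated in frame, a transcript that keeps it meets a TGA stop 28 bases into the intron. This stop follows 103 codons, the last of them read from the intron, where the coding isoform has 420 codons, the stop codon included.

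The retaining isoform Rpl4-203 was several times higher in mutants. It stood at 25.5, 31.5 and 28.7 TPM in mutants and at 5.17, 6.19 and 5.09 TPM in controls. Every mutant library was above every control library, with a mean of 28.6 ± 3.01 TPM in mutants and 5.48 ± 0.617 TPM in controls (SD, n = 3), a 5.21-fold ratio. The log2 difference was 2.19 (SE 0.13), and it passed over all 44197 isoforms tested (limma, adjusted p = 0.0055). It was the only one of 360 tested member isoforms called, where 0.0136% of all isoforms tested were called, and it was 5th by p among all isoforms. Without mutant replicate 1, mutant replicate 3 or control replicate 3 the difference was 2.27, 2.18 and 2.15, and the limma adjusted p was 0.052, 0.058 and 0.053. Snord16a, a small nucleolar RNA gene (64175423 to 64175521), lies inside intron 3 and was listed at 0 TPM in every library. Whether reads from it were assigned to Rpl4-203 is not known and was not tested.

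The coding isoform did not separate the groups. Rpl4-201 stood at 156, 187 and 170.3 TPM in mutants and at 164, 156 and 165 TPM in controls, and the groups overlapped. Rpl4-202, another transcript of the retained intron type, which does not hold intron 3, stood at 9.50, 15.6 and 11.2 TPM in mutants and at 10.3, 9.51 and 8.64 TPM in controls, also with overlap. Rpl4-203 made up 13.5% ± 0.156 of the gene's TPM in mutants and 3.11% ± 0.429 in controls (SD, n = 3), and Rpl4-201 made up 80.9% ± 0.935 in mutants and 91.5% ± 0.744 in controls. As shares of the gene, neither passed over all 35607 shares tested (limma, adjusted p = 0.052 for Rpl4-203 and 0.26 for Rpl4-201), a test in which 0.0112% of all shares were called.

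Read by the intron, transcripts that span intron 3 of Rpl4 without splicing it made up 14.0%, 14.4% and 14.4% of those that cover it in mutants, and 3.05%, 3.81% and 2.98% in controls. The log2 ratio of spliced to unspliced TPM was 2.29 lower in mutants (log2 difference −2.29, SE 0.18), which stood 12th by p among 44600 introns and just missed the threshold (limma, adjusted p = 0.0504), where 0.0157% of introns were called. The same ratio passed with a pseudocount of 1 (adjusted p = 0.022), with both sums at 2 TPM or more (adjusted p = 0.012) and when only transcripts that hold the whole intron were counted as unspliced (adjusted p = 0.0096). Each of these settings either changes the pseudocount or tests fewer introns. The intron reading was built from the TPM of the same retaining and coding isoforms given above. It is therefore another form of those values and not a separate measurement of splicing.

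At the gene level Rpl4 stood at 191, 234 and 210.2 TPM in mutants and at 179.7, 172 and 179 TPM in controls. All mutants were above all controls, with 212 ± 21.2 TPM in mutants and 177 ± 4.26 TPM in controls (SD, n = 3), but the log2 difference of 0.25 (SE 0.10) did not pass over all genes (limma, adjusted p = 0.31). Median-ratio scaling gave 0.14 for this difference, and rescaling to protein-coding genes gave 0.11. Of the mean difference of 34.8 TPM, 66.3% lay in Rpl4-203, 26.2% in Rpl4-201 and 7.50% in Rpl4-202. Rpl4 has 1 near-identical copy that was listed, and the gene was assigned 96.5% to 98.5% of the TPM of both. With the copy added the log2 difference was 0.24 (SE 0.10). How reads were divided between gene and copy is not known, and these shares are themselves an outcome of that division.

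**Figure D2:**
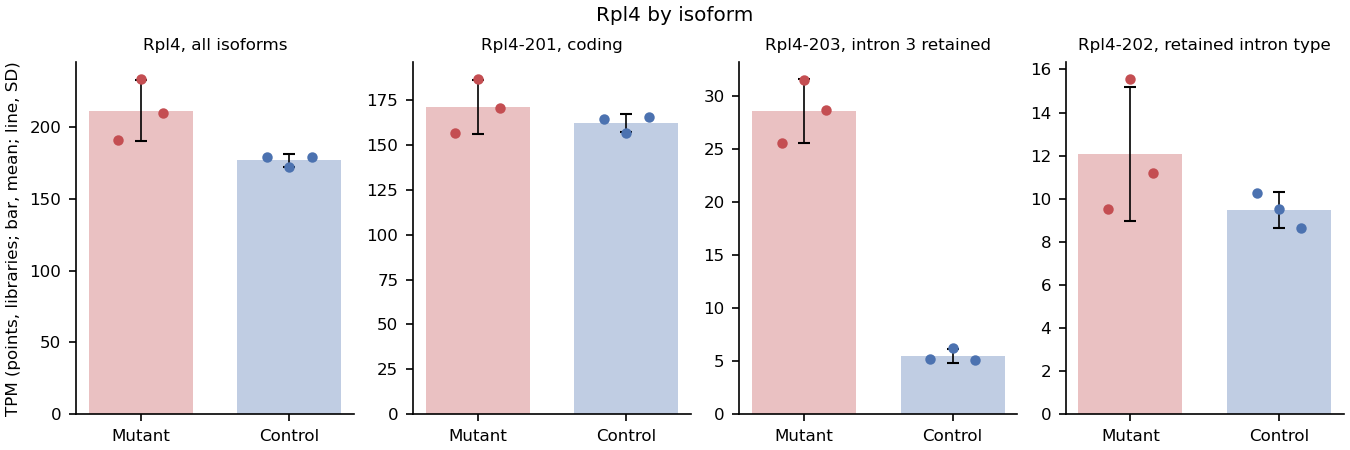
TPM of Rpl4 summed over isoforms and of its 3 isoforms in mutants (left bar of each panel) and controls (right bar); points are libraries, bars means and lines SD (n = 3 each). Rpl4-203, which retains intron 3, stands at 25.5 to 31.5 TPM in mutants and 5.09 to 6.19 TPM in controls, whereas the coding isoform Rpl4-201 overlaps between the groups.

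No intron of another member passed. Among 240 other introns tested in 68 member genes, 110 had a lower ratio of spliced to unspliced transcripts in mutants, the median log2 difference was 0.032, and the smallest adjusted p was 0.48 (limma). Member isoforms of the retained intron type had a median log2 difference of 0.066 over 134 isoforms of 60 genes, with 56.7% higher in mutants, beside a median of 0.054 and 60.7% higher over all 11535 isoforms of that type. Rpl4-203 is 1 of these 134.

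After Rpl4-203, the isoforms with the smallest p were Rps24-205, Rpl38-203, Rps23-202 and Rps12-204, and none of these passed (limma, adjusted p = 0.31, 0.32, 0.39 and 0.43). Rps24-205 is a coding isoform of a small subunit protein, at 12.3, 13.3 and 11.5 TPM in mutants and 8.22, 7.64 and 7.62 TPM in controls. Rpl38-203, a coding isoform of a large subunit protein, stood at 5.11, 4.21 and 4.51 TPM in mutants and 2.15, 1.55 and 0.832 TPM in controls. The groups did not overlap in either. Over all 360 member isoforms the groups did not overlap in 37 that were higher in mutants (10.3%) and 12 that were lower (3.33%), against 11.6% and 5.17% of all isoforms tested.

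Rps23-202, a retained intron transcript of the decoding-centre protein Rps23, stood at 6.67, 6.19 and 5.60 TPM in mutants and at 3.25, 2.51 and 3.90 TPM in controls. It made up 63.2% ± 5.42 of the TPM assigned to Rps23 in mutants and 47.5% ± 2.87 in controls (SD, n = 3), a share that did not pass (limma, adjusted p = 0.80). Rps12-204, annotated as a target of nonsense-mediated decay, stood at 8.16, 6.61 and 6.46 TPM in mutants and at 4.56, 4.56 and 4.02 TPM in controls. Among shares the next by p were Rpl13a-203 and Rpl5-201 (limma, adjusted p = 0.83 and 0.85). The noncoding isoform Rpl13a-203 took 2.77% ± 1.05 of its gene in mutants and 7.62% ± 2.69 in controls, and the coding isoform Rpl5-201 took 19.3% ± 4.19 of the TPM assigned to Rpl5 in mutants and 11.0% ± 1.47 in controls (SD, n = 3).

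A member's level in these tables can depend on how reads were divided between the gene and its copies, which is not known. Whether the copies were expressed or were assigned reads of the member was not tested. Of the 83 members, 77 have at least 1 near-identical copy elsewhere in the genome, here a pseudogene or single-exon gene whose transcript matches the member at 90% identity or more over at least 150 bases and 50% of the shorter sequence. There were 1030 such copies, 1014 annotated as pseudogenes and 14 as protein-coding, and 380 averaged at least 1 TPM. The most for 1 gene was 80, for Rpl7a, which codes for a large subunit protein. Summed over all families the copies were assigned 15839, 19074 and 17120.3 TPM in mutants and 16521, 15717 and 16087 TPM in controls, more than the members themselves, which summed to 10695, 11895 and 10997 TPM in mutants and 10226, 10383 and 10370.2 TPM in controls.

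The member held a median of 40.4% of the TPM of its family. It held under 5% in 10 families and over 90% in 21. Rps29, a small subunit zinc finger protein, held 1.31% to 2.01%, since the processed pseudogene Gm14303 was assigned 2051, 2937 and 2382 TPM in mutants and 2668, 1748 and 1940.4 TPM in controls, beside 42.6, 42.7 and 40.2 TPM in mutants and 35.8, 26.7 and 33.0 TPM in controls for Rps29. Rps27, another zinc finger protein of the small subunit, held 1.49% to 3.28% and its coding copy Rps27rt, identical over the aligned bases, held 179, 251 and 213 TPM in mutants and 262, 199 and 229 TPM in controls. For such members the assigned level need not be that of the gene's own mRNA.

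**Figure D3:**
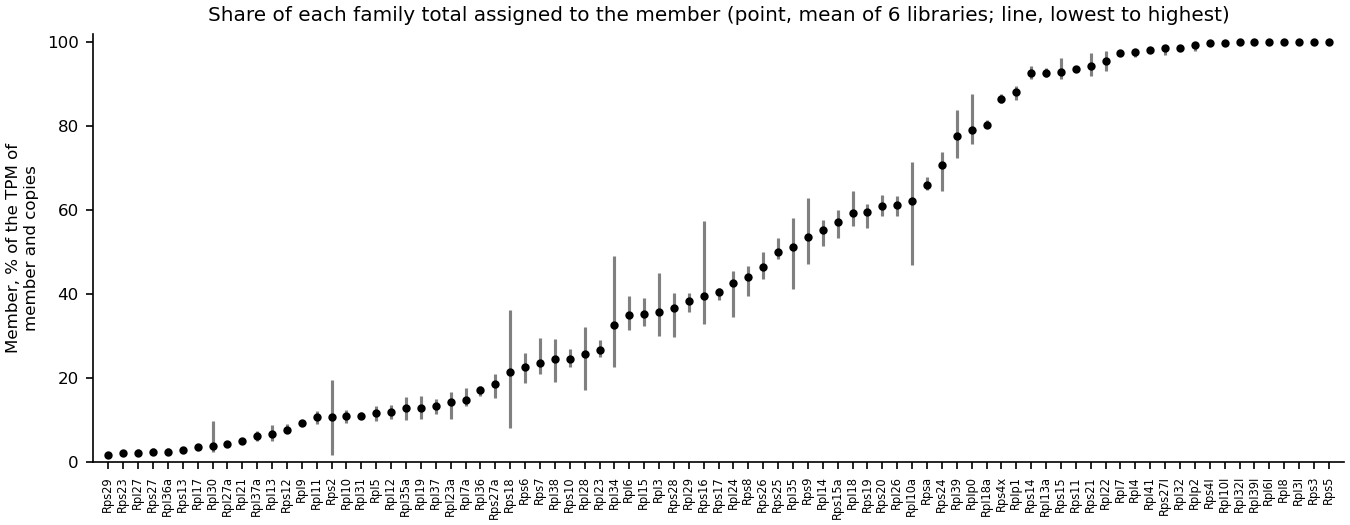
Percent of the TPM of each member and its copies that is assigned to the member, ordered by the mean of the 6 libraries (points), with the lowest and highest library as a line (n = 83 members). The share runs from under 5% to 100%, and the long lines, such as those of Rps2 and Rps18, are members whose share differed most between libraries.

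Some members with copies differed widely between libraries of the same group. Rps18, a protein of the small subunit head, stood at 108, 33.9 and 25.5 TPM in mutants and at 27.1, 112 and 107 TPM in controls. Rps2, which lies at the entry of the mRNA channel, stood at 83.1, 17.2 and 8.45 TPM in mutants and at 6.10, 74.6 and 72.3 TPM in controls. Mutant replicate 1, control replicate 2 and control replicate 3 were high and the other 3 libraries low in both genes. The log2 differences of −0.59 (SE 0.69) for Rps18 and −0.48 (SE 1.11) for Rps2 were within that spread (limma, adjusted p = 0.66 and 0.84).

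A copy of Rps18 ran the other way. Gm10260, a coding single-exon copy of Rps18 on chromosome 13, stood at 154, 258 and 242 TPM in mutants and at 204, 155 and 150.3 TPM in controls, low in the 3 libraries where Rps18 was high. Its coding sequence has 4 mismatches to the 459 bases of Rps18, an identity of 99.1%, which is why a stretch of both is shown; bases 282 to 371 of the coding sequence follow, from GENCODE M21 transcripts on GRCm38, with mismatches in capitals:
Rps18, chromosome 17, minus strand: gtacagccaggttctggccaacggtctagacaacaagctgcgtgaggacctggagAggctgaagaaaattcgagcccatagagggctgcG
Gm10260, chromosome 13, minus strand: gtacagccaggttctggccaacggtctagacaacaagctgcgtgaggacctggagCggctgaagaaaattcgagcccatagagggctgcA

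Only 2 bases differ in this stretch of 90. With copies added, Rps18 summed to 329, 374 and 314 TPM in mutants and 302, 336 and 297 TPM in controls, so that the highest library was 1.26 times the lowest instead of 4.38 times. Rps2 with its 53 copies summed to 427, 393 and 401 TPM in mutants and 377, 442 and 370 TPM in controls, 1.20 times from lowest to highest instead of 13.6 times. Rps2 held only 1.62% to 19.6% of that sum, so the sum moves little with the gene, whatever its copies do. Rpl30, a large subunit protein, stood at 11.8, 13.3 and 11.9 TPM in mutants and at 45.1, 12.2 and 11.1 TPM in controls, and only control replicate 1 was apart. Its log2 difference was −0.55 with all libraries, 0.075 without control replicate 1 and 0.085 with copies added, and none of these passed. Rpl30 too was a small part of its family, at 2.21% to 9.68%.

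**Figure D4:**
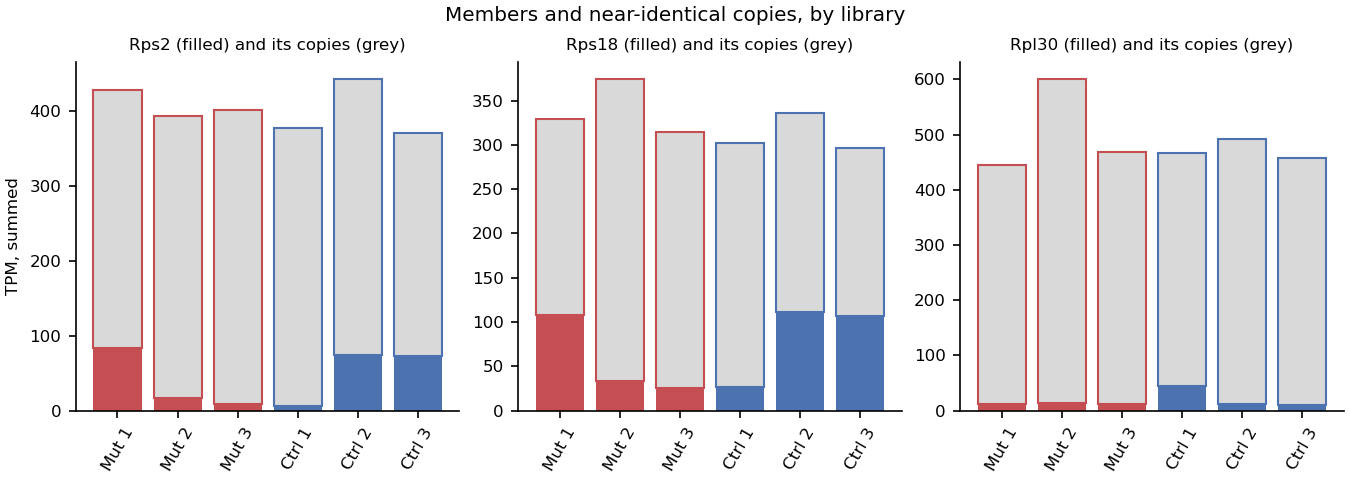
TPM of Rps2, Rps18 and Rpl30 (filled) with the TPM of their near-identical copies stacked on top (grey), in the 3 mutant libraries (left) and the 3 control libraries (right) of each panel. The filled part of Rps2 and Rps18 is tall in mutant replicate 1 and control replicates 2 and 3, while the height of the whole bar varies by 1.20 and 1.26 times between libraries.

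With every copy added to its member, no member passed (limma, smallest adjusted p = 0.29; 0.0228% of all 17579 genes passed), 5 members (6.10%) were higher at an unadjusted p under 0.05 and 1 (1.22%) was lower, and 12.3% and 4.03% of all genes were. The groups did not overlap in 18 members higher in mutants (22.0%) and 1 lower (1.22%) as single genes, where 14.5% and 5.77% of all genes tested were so separated. With copies added these counts were 12 (14.6%) and 1 (1.22%), against 14.6% and 5.82% of all genes. The median log2 difference with copies was 0.092, beside 0.093 for all genes, with 70 of 82 higher and 12 lower, but 38 higher and 44 lower once median-ratio scaling was also applied. The number of members whose highest library exceeded the lowest by over 1.5 times was 27 as single genes and 11 with copies. A sum over several genes can vary less than any 1 of them, so these counts do not show how reads were divided.

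The germ cell paralogs Rpl10l and Rpl39l were low in the mutants and in 1 control. Rpl10l, a retrogene of X-linked Rpl10 that serves spermatocytes in the mouse when the X chromosome is silenced, stood at 22.0, 23.6 and 28.0 TPM in mutants and at 41.9, 26.7 and 41.0 TPM in controls. Rpl39l, a paralog of X-linked Rpl39 that forms part of ribosomes of male germ cells in the mouse, stood at 14.6, 12.8 and 18.7 TPM in mutants and at 26.6, 14.9 and 28.0 TPM in controls. In both, control replicate 2 was low and lay among the mutants or near them, so the groups overlapped. The log2 differences were −0.54 (SE 0.19) and −0.53 (SE 0.25), and neither passed (limma, adjusted p = 0.29 and 0.33). Adding copies could hardly change them, since Rpl39l has 0 copies and the 1 copy of Rpl10l was at 0.0966 TPM or less. Rpl10l and Rpl39l were among the 4 members that differed by over 0.5.

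The spermatocyte markers varied in the same libraries. The 10 pachytene markers summed to 108, 106 and 132 TPM in mutants and to 236, 110.2 and 229 TPM in controls, with control replicate 2 again at the level of the mutants. Of the 9 tested, 8 were lower in mutants, at a median of −0.61 on the log2 scale, and none was called. The 12 leptotene to zygotene markers were all lower, with a median of −0.64, none called, and summed to 333, 307 and 388 TPM in mutants and 536, 439 and 537 TPM in controls. The part of these markers in the levels of Rpl10l and Rpl39l was not tested.

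**Figure D5:**
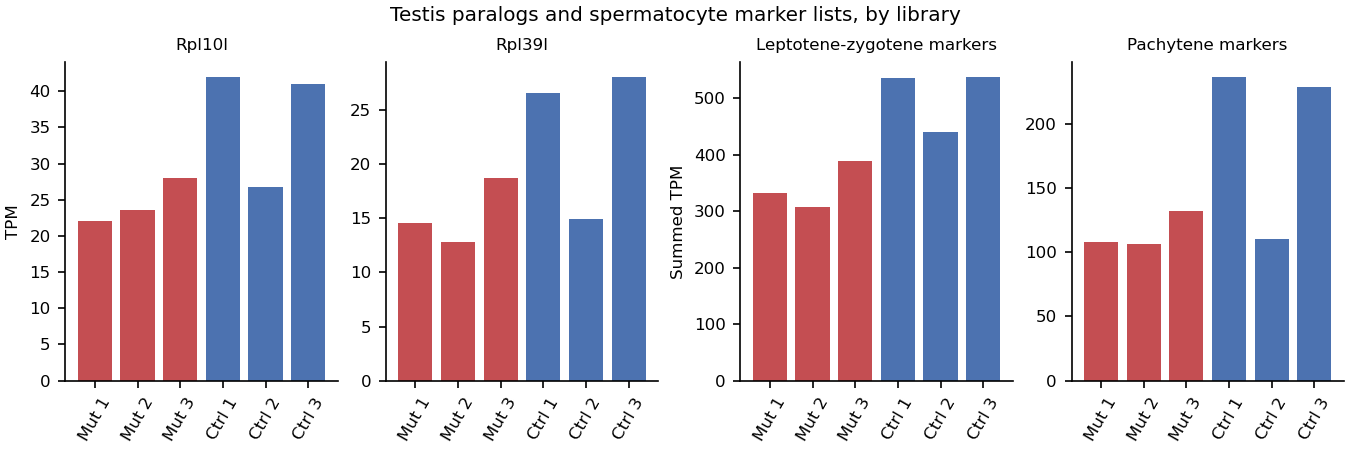
TPM of Rpl10l and Rpl39l (left panels) and summed TPM of 12 leptotene to zygotene and 10 pachytene spermatocyte markers (right panels), 1 bar per library, mutants left and controls right. Control replicate 2 is low beside the other controls in all 4 panels, and the mutants stand at 22.0 to 28.0 TPM for Rpl10l and 12.8 to 18.7 TPM for Rpl39l.

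The genes these paralogs derive from had positive differences. Rpl10, which helps to form the tRNA path of the large subunit, stood at 36.8, 38.4 and 31.8 TPM in mutants and at 26.5, 33.7 and 32.1 TPM in controls (log2 difference 0.21, SE 0.12). Rpl39, a small protein of the exit tunnel, stood at 105, 124 and 106 TPM in mutants and at 104, 101 and 89.2 TPM in controls, just without overlap (log2 difference 0.18, SE 0.11). Neither passed (limma, adjusted p = 0.40 and 0.41). Rpl10 held 9.25% to 12.2% of its family's TPM, and with copies added it summed to 301, 415 and 339 TPM in mutants and 254, 300.0 and 266 TPM in controls, without overlap (log2 difference 0.35, SE 0.14, adjusted p = 0.30 by limma). For Rpl39 the log2 difference was 0.12 with copies added, and the groups overlapped. The difference between paralog and parent was not tested.

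The remaining paralogs overlapped between the groups. Rps27l, a paralog of Rps27 known as a p53 target, stood at 81.3, 92.0 and 82.5 TPM in mutants and at 92.9, 78.3 and 83.7 TPM in controls (log2 difference 0.0059, SE 0.10, adjusted p = 0.98 by limma). Rps4l, a processed copy of Rps4x, stood at 47.4, 47.8 and 42.1 TPM in mutants and at 49.6, 44.6 and 45.0 TPM in controls (log2 difference −0.021, SE 0.094, adjusted p = 0.92 by limma). Rps27 stood at 11.7, 9.53 and 6.22 TPM in mutants and at 10.01, 9.38 and 7.77 TPM in controls, with overlap. Rps4x, the X-linked small subunit protein, stood at 109, 141 and 111 TPM in mutants and at 84.0, 103 and 91.3 TPM in controls. All mutants were above all controls for Rps4x, at a log2 difference of 0.36 (SE 0.14) that did not pass (limma, adjusted p = 0.30). Rpl3, the parent of Rpl3l, stood at 75.3, 76.3 and 68.8 TPM in mutants and at 91.2, 109 and 65.9 TPM in controls, with overlap.

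The stalk proteins, which recruit elongation factors to the large subunit, were among the higher members and did not separate the groups. Rplp0, the base of the stalk, stood at 271, 331 and 285 TPM in mutants and at 280.4, 266 and 276 TPM in controls. Rplp2, its acidic partner, stood at 155, 196 and 155 TPM in mutants and at 177, 149.9 and 159 TPM in controls. With Rplp1, the log2 differences of the 3 were 0.051 to 0.17 as deposited and their median was −0.0098 after median-ratio scaling, and none passed (limma, smallest adjusted p = 0.52).

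Rpl5 and Rpl11, which bind 5S rRNA and in free form restrain Mdm2, the inhibitor of p53, also overlapped between the groups. Rpl5 stood at 23.2, 29.1 and 22.6 TPM in mutants and at 24.9, 26.8 and 24.7 TPM in controls. Rpl11 stood at 21.1, 30.3 and 29.1 TPM in mutants and at 20.9, 23.7 and 21.9 TPM in controls. Both held under 14% of their family's TPM (9.70% to 13.3% for Rpl5 and 8.98% to 12.0% for Rpl11). Of 14 tested p53 target genes, 12 were higher, at a median of 0.19 on the log2 scale as deposited and 0.10 after median-ratio scaling, and none was called (limma). Beside this, 66.4% of all genes tested were higher as deposited, with medians of 0.094 and −0.0025 under the 2 scalings. The 3 with the smallest p were Sesn2, Gadd45a and Ccng1. Sesn2, a stress-induced inhibitor of mTOR signalling, stood at 52.7, 43.0 and 35.5 TPM in mutants and at 30.8, 35.1 and 28.6 TPM in controls. Gadd45a, a stress-response gene, averaged 16.4 ± 0.255 TPM in mutants and 14.1 ± 0.746 TPM in controls, and Ccng1, a cyclin, 13.4 ± 1.38 TPM in mutants and 10.7 ± 1.61 TPM in controls (SD, n = 3).

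Rpsa, the laminin receptor and small subunit protein, stood at 188, 208 and 177 TPM in mutants and at 158, 197 and 170.1 TPM in controls, and Rps27a, which is made as a fusion with ubiquitin, stood at 58.9, 68.2 and 53.7 TPM in mutants and at 47.5, 57.6 and 57.3 TPM in controls. The groups overlapped in both, and neither passed (limma, adjusted p = 0.58 and 0.53).

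The members with the most positive differences were Rps23, Rpl38, Rpl23a, Rps29, Rpl24 and Rps4x, and each difference was smaller with copies added, though by little for Rps4x. Rps23 stood at 10.3, 9.17 and 9.81 TPM in mutants and at 6.60, 5.68 and 7.96 TPM in controls (log2 difference 0.48, SE 0.13, adjusted p = 0.29 by limma), but held only 1.53% to 2.64% of its family, whose sum differed by 0.13. Rpl38 stood at 66.5, 116 and 103 TPM in mutants and at 91.2, 42.6 and 75.6 TPM in controls, with wide spread in both groups. Rpl23a, which lies at the exit of the tunnel, stood at 71.6, 98.4 and 85.0 TPM in mutants and at 73.0, 46.2 and 74.7 TPM in controls. With copies added the log2 differences were 0.25 for Rpl38, 0.33 for Rpl23a, 0.23 for Rps29, 0.20 for Rpl24 and 0.35 for Rps4x. The family of Rpl23a, unlike the single gene, did not overlap between the groups, at 509, 652 and 592 TPM in mutants and 438, 459 and 490.0 TPM in controls, and did not pass (limma, adjusted p = 0.29).

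Rps29 and Rpl24 did not overlap between the groups as single genes. Rpl24, which bridges to the small subunit, stood at 54.2, 61.3 and 62.1 TPM in mutants and at 53.7, 44.0 and 39.4 TPM in controls (log2 difference 0.38, SE 0.13, adjusted p = 0.29 by limma). With copies added the groups overlapped for both. Rpl28, a large subunit protein at the lower end, stood at 115, 83.6 and 71.97 TPM in mutants and at 115, 92.4 and 123 TPM in controls (log2 difference −0.30, and 0.16 with copies added).

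None of the genes on lists of the members' partners was called either. Of 8 genes outside the naming rule, ribosomal protein genes or genes with a related name, 7 were higher in mutants as deposited. Their median log2 difference was 0.086, and −0.026 after median-ratio scaling, and none was called. The 8 include Rps19bp1, a binding protein of Rps19 and not a ribosomal protein (log2 difference 0.0050). Rpl36al, a retrocopy of Rpl36a, averaged 81.3 ± 1.75 TPM in mutants and 68.9 ± 3.69 TPM in controls, Rpl7l1, a paralog of Rpl7, 34.9 ± 2.42 TPM in mutants and 29.6 ± 1.94 TPM in controls, and Fau, a fusion that yields Rps30, 204 ± 14.8 TPM in mutants and 174 ± 9.998 TPM in controls (SD, n = 3). The groups did not overlap in these 3, and none passed (limma, smallest adjusted p = 0.29).

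Of 15 other mRNAs with a TOP motif, for translation factors and their partners, 12 were higher, with a median of 0.10 as deposited and −0.011 after median-ratio scaling, and none was called. Btf3, a nascent chain chaperone, averaged 77.5 ± 4.74 TPM in mutants and 67.2 ± 5.33 TPM in controls. Tpt1, a growth-related TOP mRNA, averaged 152 ± 22.7 TPM in mutants and 126 ± 8.81 TPM in controls. Pabpc1, the poly(A)-binding protein, lay lower, at 364, 353 and 336 TPM in mutants and 385, 391 and 457 TPM in controls (log2 difference −0.22, SE 0.11, adjusted p = 0.34 by limma), without overlap.

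Among 39 tested genes of ribosome biogenesis 24 were higher and 15 lower, with a median of 0.043 as deposited and −0.063 after median-ratio scaling, and none was called. Nmd3, the export adaptor of the large subunit, stood at 42.5, 39.5 and 39.4 TPM in mutants and at 51.1, 49.4 and 49.4 TPM in controls, without overlap (log2 difference −0.30, SE 0.080, adjusted p = 0.29 by limma). Sbds, which readies the large subunit for translation, stood at 19.8, 19.4 and 21.03 TPM in mutants and at 16.6, 17.0 and 16.5 TPM in controls, also without overlap. Ubtf, a factor of RNA polymerase I, averaged 79.9 ± 9.24 TPM in mutants and 61.7 ± 8.12 TPM in controls (SD, n = 3).

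Of 17 genes of the mTOR pathway, of proteins that bind TOP mRNAs and of the Myc network, 15 were higher, with a median of 0.13 as deposited and 0.021 after median-ratio scaling, and none was called. Eif4ebp1, a translation inhibitor that mTOR switches off, stood at 9.06, 11.7 and 10.7 TPM in mutants and at 7.14, 7.96 and 6.53 TPM in controls, without overlap (log2 difference 0.48, SE 0.12, adjusted p = 0.29 by limma). Mycn, a transcription factor of growth genes, averaged 16.6 ± 2.11 TPM in mutants and 12.9 ± 1.34 TPM in controls, and Rps6kb2, a kinase of the small subunit protein Rps6, 26.9 ± 3.401 TPM in mutants and 20.3 ± 3.76 TPM in controls (SD, n = 3).

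A pyrimidine run at the annotated start, as in the TOP motif, was more frequent among the members than among all genes. RefSeq promoters (GRCm38.p6) were found for 61 members. A C followed by 4 bases that are each C or T began exactly at the annotated start in 14 of them (23.0%), against 3.01% of 27025 genes with a promoter, and within 5 bases of it in 29 (47.5%), against 21.2%, searched on the transcribed strand only. Starts of 4 members, 20 bases before and 30 after each, show members with and without a run that begins within 5 bases of the start, and such a run is in capitals:
Rps18, chr17:33955636-33955685, minus strand: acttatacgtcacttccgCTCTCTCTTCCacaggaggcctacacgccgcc
Rpl13a, chr7:45128716-45128765, minus strand: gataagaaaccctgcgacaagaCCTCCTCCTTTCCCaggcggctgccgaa
Rpl10l, chr12:66284372-66284421, minus strand: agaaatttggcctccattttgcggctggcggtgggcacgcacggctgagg
Rpl39l, chr16:10170208-10170257, plus strand: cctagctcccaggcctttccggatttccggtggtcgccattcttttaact

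In Rps18 and Rpl13a a run begins within 5 bases of the start, and in the retrogene Rpl10l and the paralog Rpl39l none does, although both hold such a run elsewhere in the window. This is not particular to the paralogs. Rpl10, the parent of Rpl10l, Rpl4 and Rplp0 also lack such a run there, whereas Rpl39, the parent of Rpl39l, has it. A match is a match of letters at an annotated start and not a measured start.

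Introns of members also house small nucleolar RNAs, which guide the modification of ribosomal RNA. On the same strand, 56 such genes lie within 29 members, and 37 of them were listed at 0 in every library. Of the 16 tested, 14 were lower in mutants, at a median of −0.67 on the log2 scale, and none was called (limma). Snord15b, in Rps3, was the most abundant, at 1977, 1821 and 2044 TPM in mutants and at 2161, 3007 and 2159.8 TPM in controls, without overlap (log2 difference −0.31, SE 0.17, adjusted p = 0.38 by limma). Snora21, in Rpl23, stood at 116.0, 71.6 and 86.4 TPM in mutants and at 144, 131 and 96.3 TPM in controls. Snord83b, in Rpl3, was listed at 413, 0 and 0 TPM in mutants and at 0, 440 and 578 TPM in controls, high in the same 3 libraries as Rps2 and Rps18. Of the members, 22 also have an annotated gene on the other strand.

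In the authors' deposited table of gene fold changes, the confident log2 fold change of mutant over control was above 0 for 57 members, below 0 for 16 and at 0 for 9 of the 82 tested. Among all genes tested, the authors' deposited table had 60.3% above 0 and 30.1% below 0. The table gives 0.22 for Rpl4, −0.53 for Rpl10l and −0.54 for Rpl39l, and 0 for Rpl30. For Rps18 and Rps2 the authors' deposited table gives −1.68 and −2.05, farther below 0 than the limma differences of −0.59 and −0.48 and opposite in sign to those with copies added, 0.12 and 0.043.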

How the data were processed

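Whole testes of 3 Rnu11 mutant and 3 control mice were sequenced as stranded total RNA depleted of ribosomal RNA, per the labels' protocols, and groups were taken from the labels. HISAT2 and GRCm38 are named in the submitters' processing notes. How reads that fit several genes were counted is not given in the sources used here. Deposited values are the authors' TPM of genes and of isoforms and, in a table of group averages, log2 fold changes and average TPM. With no counts, the depth is unknown and no counting interval is given. Nothing was known of replicates beyond the labels, so p-values measure the spread between these libraries.

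The members and gene lists were chosen with earlier results of these data known. Features with a mean of at least 1 TPM were tested two-sided with limma 3.58.1 (R 4.3.3, eBayes with trend) on log2(TPM + 1), which understates the change of low genes, with Benjamini-Hochberg adjustment over all features and a threshold of 0.05. Shares were log2 ratios of 1 isoform to its gene's other isoforms, with 0.1 added to both, in genes at 5 TPM or more and for isoforms at 5% to 95%. Intron ratios used spliced over unspliced TPM, each plus 0.1 and each at least 0.5. An exact permutation test of 3 against 3 cannot go below 0.1. Copies were found with blastn 2.17.0 on GENCODE M21 transcripts, to which 53461 gene symbols and 141524 isoforms matched. No copy overlaps its member's locus. On simulated data with changes of 1 and 2 on the log2 scale, 78.5% and 94% of changed features were called in the gene fit (17959 genes), 43% and 83.5% in the isoform fit (44197 isoforms), 9% and 53.5% in the share fit (35607 shares) and 0.5% and 33.5% in the intron fit (44600 introns). These changes are larger than every member gene difference (−0.59 to 0.48), so the rates do not tell whether differences of that size could be called. Genes were named by a written rule: Rpl4, paralogs and their parents, stalk, 5S partners, Rpsa, Rps27a, the 6 most positive and 6 most negative members, the highest and lowest member, the 5 isoforms and 5 shares of smallest p, and 3 genes by p of each other list. The named copies, their small nucleolar RNAs, Rpl7a and the starts shown were chosen after their values were seen. Alternatives were other pseudocounts, filters and scalings, a fit without trend, a block on replicate numbers, leaving out each library, and copies added to their member, the last chosen after seeing the data. Python 3.11.15, pandas 2.3.3 and matplotlib 3.10.9 were also used.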

Additional observations from a re-analysis of the deposited data

How the results depend on the processing

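No member gene was called under any of the 22 alternatives, and the median difference of the members, 0.10 as deposited, ranged from 0.047 to 0.16 when 1 library was left out. It was below 0 with median-ratio scaling (−0.0076), with protein-coding scaling (−0.034) and with copies added and median-ratio scaling together (−0.021), and the differences of the members are therefore given beside those of all genes. The Rpl4 gene difference kept its direction and was not called. Rpl4-203 was the 1 member isoform called, and the count was 0 to 1 when each library was left out. The share of Rpl4-203 was called, giving 1 member share, with a pseudocount of 1 and with genes of at least 20 TPM. The Rpl4 intron ratio was called at −2.11 with a pseudocount of 1, at −2.29 with both sums at least 2 TPM and at −2.29 for whole-intron retention, and was −2.40 to −2.22 with 1 library left out (adjusted p = 0.11 to 0.27, limma). TPM keeps no depth, so what depth limits cannot be stated.

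The replicate numbers did not pair the libraries: same-numbered libraries correlated at −0.069, 0.035 and 0.077 in their deviations from the group means. With the replicate block, 0 member isoforms and 0 member genes were called, the Rpl4-203 difference was 2.19 (adjusted p = 0.16), the Rpl4 gene difference was 0.25 (adjusted p = 0.30) and its intron ratio −2.29 (adjusted p = 0.53, limma).

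Differences of uncalled members near 0, or with uneven libraries, changed sign. With copies added they were 0.16 for Rpl28, 0.067 for Rpl3, 0.085 for Rpl30, 0.13 for Rpl5, 0.12 for Rps18, 0.043 for Rps2 and 0.010 for Rps27, with and without the replicate block. With copies added and median-ratio scaling they were 0.047 for Rpl28, 0.020 for Rpl5, −0.067 for Rplp0, −0.046 for Rplp2, 0.0080 for Rps18, −0.016 for Rps27a and −0.10 for Rps27l. Median-ratio scaling gave −0.0098 for Rplp0, −0.062 for Rplp2 and −0.11 for Rps27l, and protein-coding scaling −0.037 for Rplp0, −0.089 for Rplp2, −0.13 for Rps27l and −0.012 for Rpsa. With 1 library left out, differences ran from −0.15 to 0.028 for Rpl5, −0.89 to 0.075 for Rpl30, −0.060 to 0.12 for Rplp2, −1.61 to 0.20 for Rps2, −0.20 to 0.21 for Rps27, −0.051 to 0.071 for Rps27l and −0.053 to 0.036 for Rps4l. The cause of these changes was not tested.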
